A study of Mus musculus with 8 samples.

Results

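Transmitter release at a synapse is carried out by proteins that dock, prime, fuse and recover vesicles, and the expression of 48 genes of this machinery was followed in the neural retina of Mfp2-/- mice. The genes were taken by symbol from a list of names, out of 43472 symbols listed for each library, and 46 of them had enough counts for a test. They comprise synaptotagmins, SNAREs and their disassembly factors, complexins, vesicle membrane proteins and the glutamate transporter Slc17a7, synapsins and Rab3 proteins, scaffolds of the active zone and the ribbon, and endocytic proteins. The samples were neural retinas of 4 Mfp2-/- mice and 4 control mice on the C57BL/6J strain at 3 weeks of age (postnatal day 21). Mfp2-/- mice lack the peroxisomal β-oxidation enzyme multifunctional protein 2 in all cells. Of the control mice, 3 were Mfp2+/+ and 1, control replicate 2, was Mfp2+/-. Each library held the RNA of both retinas of 1 mouse, and retinas counted below are such libraries. The error given with a mean is the standard deviation (SD) between mice. The error given with a fold change is the standard error (SE) of the fitted model.

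The retina holds synapses of different build. Photoreceptors and bipolar cells release glutamate continuously at ribbon synapses, where a plate-like ribbon tethers vesicles next to the release sites, whereas amacrine cells use conventional synapses without a ribbon. Ribbon synapses replace several proteins of the conventional machinery by other isoforms, with Stx3 in place of Stx1a and with Cplx3 and Cplx4 in place of Cplx1 and Cplx2. Photoreceptor ribbon synapses are also rich in Unc13b, Rims2, Sv2b and RIBEYE, the ribbon protein made from the Ctbp2 gene. Ribbon-type isoforms were therefore set against conventional isoforms of the same families.

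The 3′ ends of transcripts were sequenced, so that counts do not grow with transcript length. The counts in genes came to 1895485 to 2826553 in Mfp2-/- and 2340974 to 3226187 in control libraries. Reads outside annotated genes made up 27.5%, 10.8%, 15.7% and 28.0% of all reads in Mfp2-/- replicates 1 to 4, against 27.1%, 28.3%, 22.6% and 29.9% in control replicates 1 to 4. Hsd17b4, the gene of MFP2, had 1, 0, 1 and 0 counts in the Mfp2-/- libraries and 47, 20, 78 and 37 counts in the control libraries, matching the labelled genotypes. All 15 tested rod markers fell, and their summed level was 1375 to 1937 CPM (counts scaled by library size and TMM factor) in Mfp2-/- against 31373 to 36246 CPM in control retinas. Of 11 cone markers, 7 fell and 2 rose. Of the neurons behind the photoreceptors, 9 of 11 bipolar, 3 of 10 amacrine and 6 of 10 ganglion cell markers were higher in Mfp2-/- retinas. None of them was lower. Of 6 horizontal cell markers 2 were lower (Sept4 and Ndrg1) and 0 higher. The horizontal cell markers summed to 343 to 475 CPM in Mfp2-/- against 600.2 to 651 CPM in control retinas. Sept4 averaged 142 CPM in Mfp2-/- and 223 CPM in control retinas, and Ndrg1 117 and 235 CPM. The other 4 horizontal cell markers overlapped between the groups and did not pass, with log2 fold changes of -0.16 (Calb1) to 0.22 (Onecut2). Müller glia markers were higher for 5 of 8 genes, microglia markers for 6 of 6 and lens markers for 3 of 7. These calls used an adjusted p under 0.05 in edgeR, at which 13.8% of all 12516 tested genes were higher and 13.2% lower. The summed lens level differed widely between libraries, at 1794, 5246, 3142 and 279 CPM in Mfp2-/- replicates 1 to 4 against 274 to 1217 CPM in control. The part of these markers in the results that follow was not tested, and in tissue RNA fewer cells of a type and less RNA per cell cannot be told apart.

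In Mfp2-/- retinas several ribbon-type transcripts of the release machinery fell by large factors, while 5 of 7 synaptotagmins and 2 of 7 conventional isoforms rose by smaller ones. Of the 46 tested members, 8 fell and 10 rose in edgeR's quasi-likelihood test at an adjusted p of 0.05, and 28 did not pass. The genes that fell were Cplx4, Slc17a7, Unc13b, Rims2, Stx3, Sv2b, Synj1 and Syngr1, and those that rose were Syt2, Syt5, Syngr3, Syt13, Syt11, Syt4, Sv2a, Syn2, Erc1 and Rims1. Among all 12516 tested genes 27.0% were called, 13.8% as higher and 13.2% as lower, against 21.7% higher and 17.4% lower among the members. The median log2 fold change was 0.15 over the members and -0.0039 over all genes. The values of all 4 Mfp2-/- retinas lay above all control values for 12 members and below them for 9, where 30.9% of all genes separated the groups, 15.1% above and 15.8% below. The count of higher members changed when 1 library was left out. It was 7, 5, 5 and 4 without control replicates 1 to 4 in turn. Without Mfp2-/- replicates 1 to 4 in turn it was 11, 12, 4 and 7. The count of lower members was 6 to 7 when any 1 library was left out. With upper-quartile factors or total counts alone the median of all genes moved to 0.12 and 17 members were higher and 6 lower, and the share of higher genes among all calls was then 64.2% and 65.2%, against 51.2% with TMM factors.

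**Figure D1:**
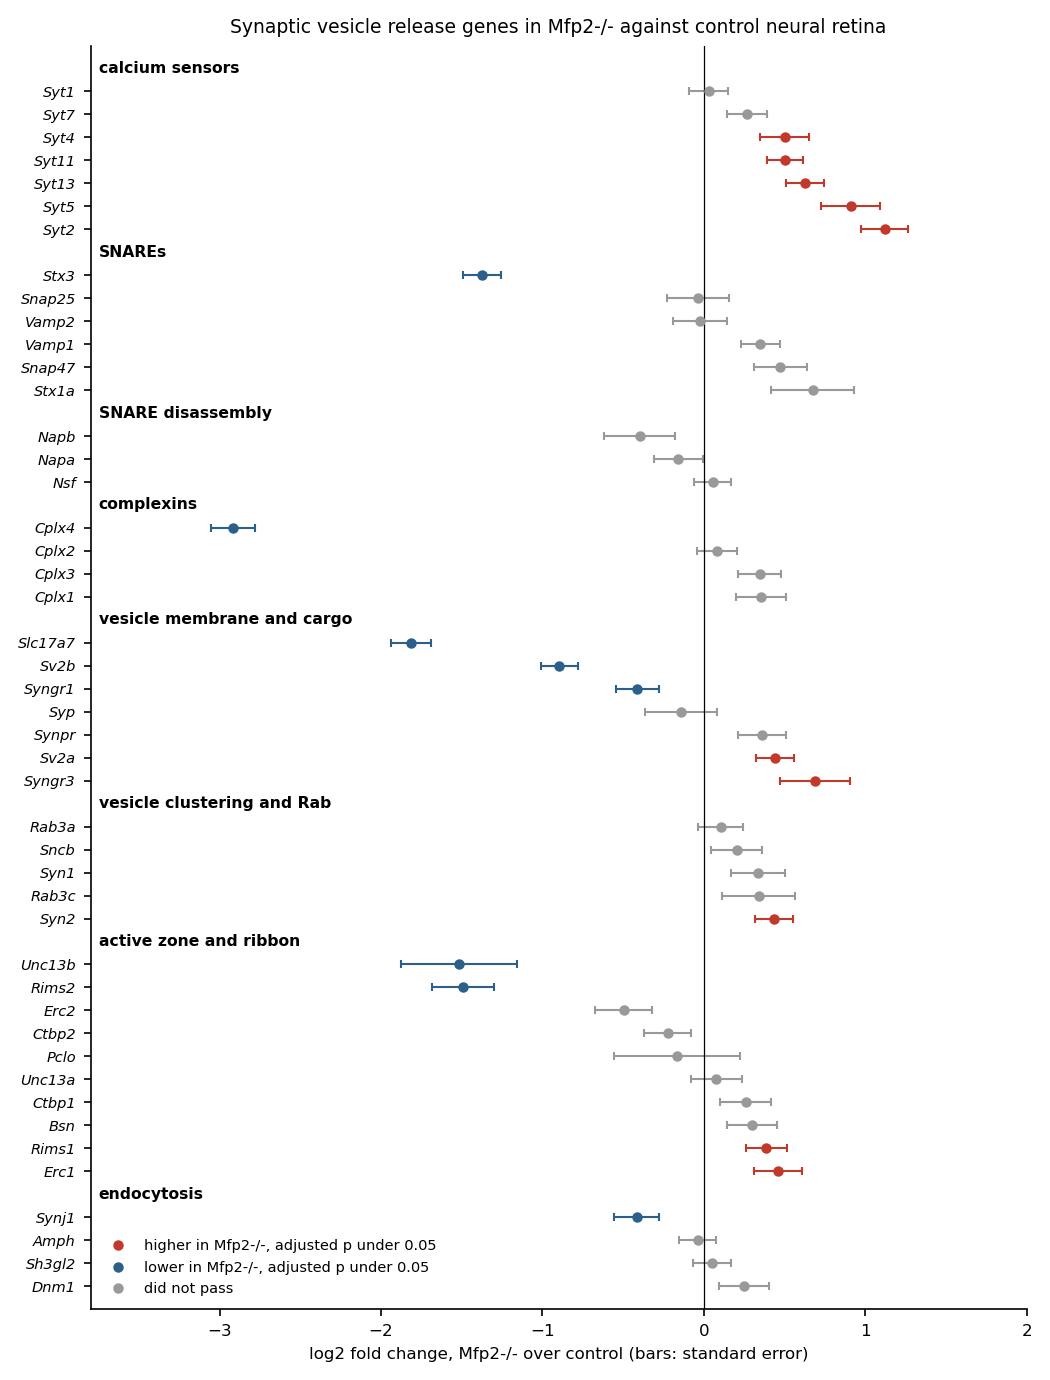
Log2 fold change, Mfp2-/- over control, of the 46 tested release genes ordered by role, with points for the edgeR estimate and bars for its standard error; colours separate genes called higher, called lower and not called at an adjusted p of 0.05. The falls reach -2.92 (Cplx4) while the rises end at 1.12 (Syt2), and the synaptotagmins hold 5 of the 10 genes that rose.

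The 7 ribbon-type genes had 5 members that fell (Stx3, Cplx4, Unc13b, Rims2 and Sv2b) and 2 that did not pass the test (Cplx3 and Ctbp2), with a median log2 fold change of -1.37. The 7 conventional counterparts had 2 members that rose (Sv2a and Rims1) and 5 that did not pass (Stx1a, Cplx1, Cplx2, Unc13a and Ctbp1), with a median of 0.36. Over all tested genes 13.8% were higher and 13.2% lower. In 21 alternative settings the call of Sv2a was lost in 6 and that of Rims1 in 9. The ribbon-type genes summed to 980 to 1117 CPM in Mfp2-/- against 2168 to 2261 CPM in control retinas. The conventional genes summed to 2264 to 2564 CPM in Mfp2-/- against 1769 to 1897 CPM in control retinas, so that neither sum overlapped between the groups. Most of the conventional sum was Sv2a alone, at 1473 to 1796 CPM in Mfp2-/- and 1130 to 1233 CPM in control retinas. In the same retinas the rod markers had a median log2 fold change of -4.31, and the cone markers summed to 1081 to 1166 CPM in Mfp2-/- against 1659 to 1907 CPM in control retinas. The part of this in the falls of the ribbon-type genes was not tested.

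Stx3, the target membrane SNARE of ribbon synapses (chromosome 19, 11775118 to 11819403, GRCm38), was at 194, 175, 195 and 184 CPM in Mfp2-/- replicates 1 to 4 and at 526, 454, 497 and 462 CPM in control replicates 1 to 4. Every Mfp2-/- retina lay far below the lowest control, and Stx3 was 2.59-fold lower (log2 fold change -1.37 ± 0.12 SE, where SE is the standard error of the fit, edgeR adjusted p = 1.33e-05). Stx1a, its counterpart at conventional synapses and the lowest of all tested members in control retinas, was at 12.03, 23.9, 23.9 and 25.7 CPM in Mfp2-/- and 17.1, 11.8, 12.3 and 12.2 CPM in control retinas. These values came from 34 to 71 counts per Mfp2-/- library and 26 to 47 counts per control library, and the groups overlapped, with Mfp2-/- replicate 1 low and control replicate 1 high within their groups. The log2 fold change of Stx1a was 0.67 ± 0.26 SE and did not pass the test (adjusted p = 0.0743), and without Mfp2-/- replicate 1 it was 0.90 and passed (adjusted p = 0.00936).

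The complexins, small proteins that bind the assembled SNARE complex and regulate fusion, included 1 gene that fell and 3 that did not pass the test. Among all tested genes 13.2% were lower. Cplx4, which is best known from photoreceptor terminals (chromosome 18, 65955722 to 65970237), was at 68.3, 58.4, 56.5 and 60.3 CPM in Mfp2-/- and 404, 461, 485 and 491 CPM in control retinas. The groups were far apart and the spread within each was small, and Cplx4 was 7.55-fold lower, the largest fold change of all members (log2 fold change -2.92 ± 0.14 SE, adjusted p = 1.79e-07). Cplx3, also a ribbon-type complexin but present in bipolar and amacrine cells besides cones, was at 309.6, 403, 327 and 310.4 CPM in Mfp2-/- and 274, 248, 286 and 254 CPM in control retinas. All 4 Mfp2-/- values lay above the controls, yet the log2 fold change of 0.35 ± 0.13 SE did not pass the test (adjusted p = 0.0764). With upper-quartile factors or total counts alone Cplx3 did pass (adjusted p = 0.0336 and 0.0251). The conventional Cplx1 was at 106, 116, 149 and 122 CPM in Mfp2-/- and 107, 96.8, 105 and 76.3 CPM in control, and Cplx2 at 176, 162, 199.7 and 198 CPM in Mfp2-/- and 183, 186, 161 and 167 CPM in control. Both overlapped between the groups and neither passed the test (log2 fold change 0.36, adjusted p = 0.113 for Cplx1 and 0.08, adjusted p = 0.668 for Cplx2). Cplx4 was thus the most abundant complexin in control retinas and the least abundant in Mfp2-/- retinas, and the 4 complexins summed to 659 to 740 CPM in Mfp2-/- against 967 to 1037 CPM in control.

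**Figure D2:**
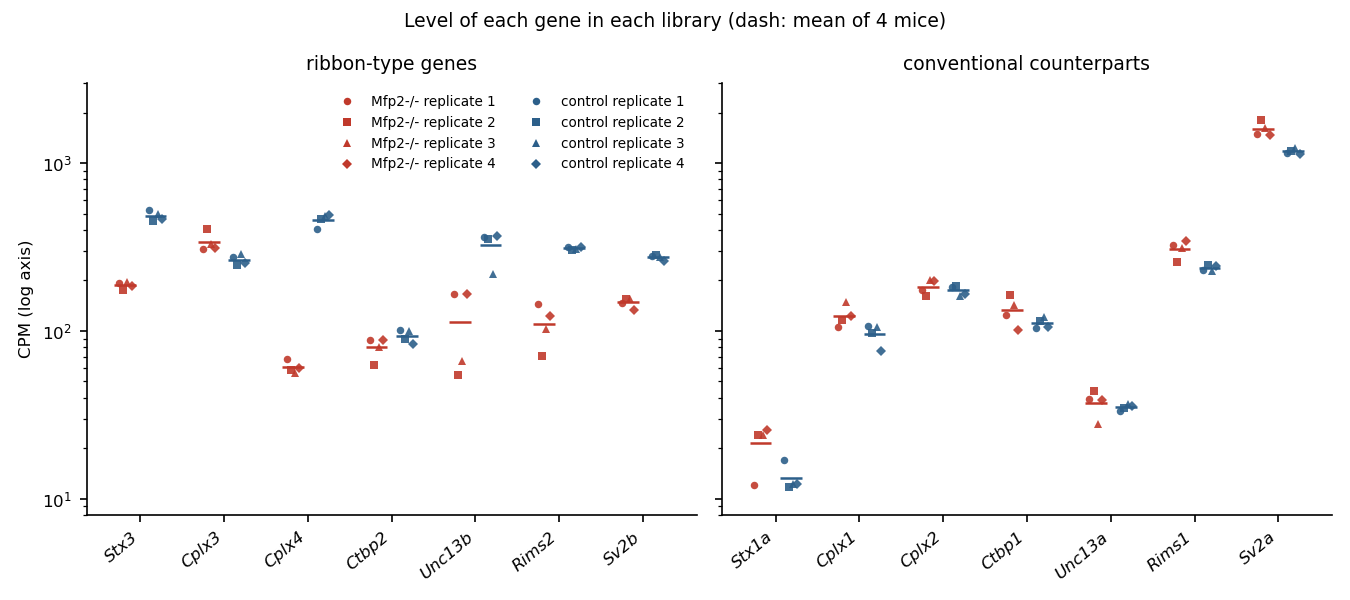
Level in CPM, on a log axis, of the 7 ribbon-type and 7 conventional release genes in each of the 4 Mfp2-/- and 4 control retinas; points are single retinas and dashes group means. Stx3, Cplx4, Unc13b, Rims2 and Sv2b lie wholly lower in Mfp2-/- retinas, Cplx3 lies wholly higher, and Ctbp2 overlaps.

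Unc13b, a vesicle priming factor of the Munc13 family (chromosome 4, 43058953 to 43264871), was at 166, 54.4, 66.2 and 167 CPM in Mfp2-/- and 361, 354, 217 and 369 CPM in control retinas. It fell 2.86-fold (log2 fold change -1.52 ± 0.36 SE, adjusted p = 0.0106), with the largest standard error of the genes that fell. Mfp2-/- replicates 2 and 3 and control replicate 3 were low within their groups. These 3 libraries also had the lowest shares of reads outside annotated genes, and the part of this in the result was not tested. Without Mfp2-/- replicates 2 and 3 the log2 fold change was -0.97 and still passed (adjusted p = 0.00198). The conventional Unc13a was at 39.3, 43.7, 27.9 and 38.6 CPM in Mfp2-/- and 33.5, 34.8, 36.8 and 35.9 CPM in control retinas and did not pass the test (log2 fold change 0.08 ± 0.16 SE, adjusted p = 0.74). Unc13a shares exon bases with Colgalt1 on the other strand, whose counts were 199% of its own, and the strand setting of the counting is not given in the sources used here.

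Rims2, a scaffold that links vesicles to calcium channels at the active zone (chromosome 15, 39198261 to 39684372), was at 144, 71.1, 103 and 123 CPM in Mfp2-/- and 317, 304, 307 and 316 CPM in control retinas. The controls differed little among themselves and all lay above 300 CPM, and Rims2 was 2.81-fold lower (log2 fold change -1.49 ± 0.19 SE, adjusted p = 2.75e-04). Its paralogue Rims1 was at 324, 258, 309.9 and 344 CPM in Mfp2-/- and 231, 247, 227 and 242 CPM in control retinas. The groups did not overlap and Rims1 was higher in Mfp2-/- retinas (log2 fold change 0.39 ± 0.13 SE, adjusted p = 0.0459), although the call was lost when any library other than Mfp2-/- replicate 2 was left out (adjusted p = 0.0674 to 0.108). In control retinas Rims2 was the more abundant of the pair and in Mfp2-/- retinas Rims1 was, in every library.

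Sv2b, a vesicle glycoprotein of photoreceptor terminals (chromosome 7, 75114894 to 75309262), was at 148, 154, 155 and 134 CPM in Mfp2-/- and 278, 284, 277 and 260.2 CPM in control retinas, which made it 1.86-fold lower (log2 fold change -0.90 ± 0.12 SE, adjusted p = 2.65e-04). Its widespread relative Sv2a was at 1484, 1796, 1621 and 1473 CPM in Mfp2-/- and 1154, 1173, 1233 and 1130.4 CPM in control retinas and was 1.36-fold higher (log2 fold change 0.44 ± 0.12 SE, adjusted p = 0.0194). Both genes separated the groups completely, in opposite directions. The call of Sv2a did not hold with the omission of control replicate 2, control replicate 4 or Mfp2-/- replicate 3 (adjusted p = 0.0575, 0.0569 and 0.0588), while that of Sv2b was kept in all 21 alternative settings. Sv2c, the remaining member of the family, had only 26 counts over the 4 Mfp2-/- and 28 over the 4 control libraries and was not tested.

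Ctbp2, whose 3′ end is shared by the ribbon protein RIBEYE and the transcriptional corepressor CtBP2, was at 88.5, 62.5, 80.005 and 88.6 CPM in Mfp2-/- and 102, 89.1, 100.3 and 83.3 CPM in control retinas. Its paralogue Ctbp1 was taken here as the conventional counterpart. Ctbp1 was at 124, 164, 143 and 101 CPM in Mfp2-/- and 103, 114, 122 and 105 CPM in control retinas. The groups overlapped for both and neither passed the test (log2 fold change -0.23, adjusted p = 0.272 for Ctbp2 and 0.26, adjusted p = 0.244 for Ctbp1). Reads of transcript 3′ ends cannot tell RIBEYE from CtBP2, so the level of RIBEYE itself is not known from these counts.

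A ratio of 2 genes within a library depends little on how libraries are scaled, and 9 such ratios of a ribbon-type over a conventional gene were compared. In 6 of the 9 the 4 Mfp2-/- libraries lay below all 4 controls. Of all tested single genes 15.8% lay wholly below, and the share over all pairs of genes was not computed. The ribbon-type genes of the 6 ratios (Stx3, Cplx4, Unc13b, Rims2 and Sv2b) also lay wholly below by themselves. The exact two-sided permutation test gave p = 0.0286 for each of the 6 ratios, the smallest that 4 against 4 libraries allow. Adjusted over the 9 ratios, this permutation p was 0.0429. The log2 ratio of Stx3 to Stx1a was 3.14 ± 0.53 in Mfp2-/- and 5.12 ± 0.16 in control retinas (SD, n = 4 each), a difference of -1.98. That of Cplx4 to Cplx1 was -0.63, -0.98, -1.39 and -1.01 in Mfp2-/- replicates 1 to 4 and 1.91, 2.24, 2.20 and 2.67 in control replicates 1 to 4, a difference of -3.26, and that of Cplx4 to Cplx2 was -1.58 ± 0.21 in Mfp2-/- and 1.40 ± 0.21 in control, so that both ratios changed sign. The ratio of Rims2 to Rims1 also changed sign, with -1.52 ± 0.28 in Mfp2-/- and 0.39 ± 0.07 in control retinas. The tightest ratio was that of Sv2b to Sv2a, at -3.42 ± 0.09 in Mfp2-/- and -2.09 ± 0.05 in control retinas. The log2 ratio of Unc13b to Unc13a was 1.42 ± 0.84 in Mfp2-/- and 3.15 ± 0.41 in control, a difference of -1.73 that was -1.07 without Mfp2-/- replicates 2 and 3. In the other 3 ratios the groups overlapped. The log2 ratio of Cplx3 to Cplx1 was 1.45 ± 0.28 in Mfp2-/- and 1.47 ± 0.18 in control retinas (exact permutation p = 0.914, adjusted p = 0.914), and that of Cplx3 to Cplx2 was 0.87 ± 0.30 in Mfp2-/- and 0.61 ± 0.17 in control retinas (exact permutation p = 0.171, adjusted p = 0.193). That of Ctbp2 to Ctbp1 was -0.72 ± 0.51 in Mfp2-/- and -0.25 ± 0.15 in control retinas (exact permutation p = 0.143, adjusted p = 0.184), and the difference of -0.48 shrank to -0.092 without Mfp2-/- replicates 2 and 3.

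**Figure D3:**
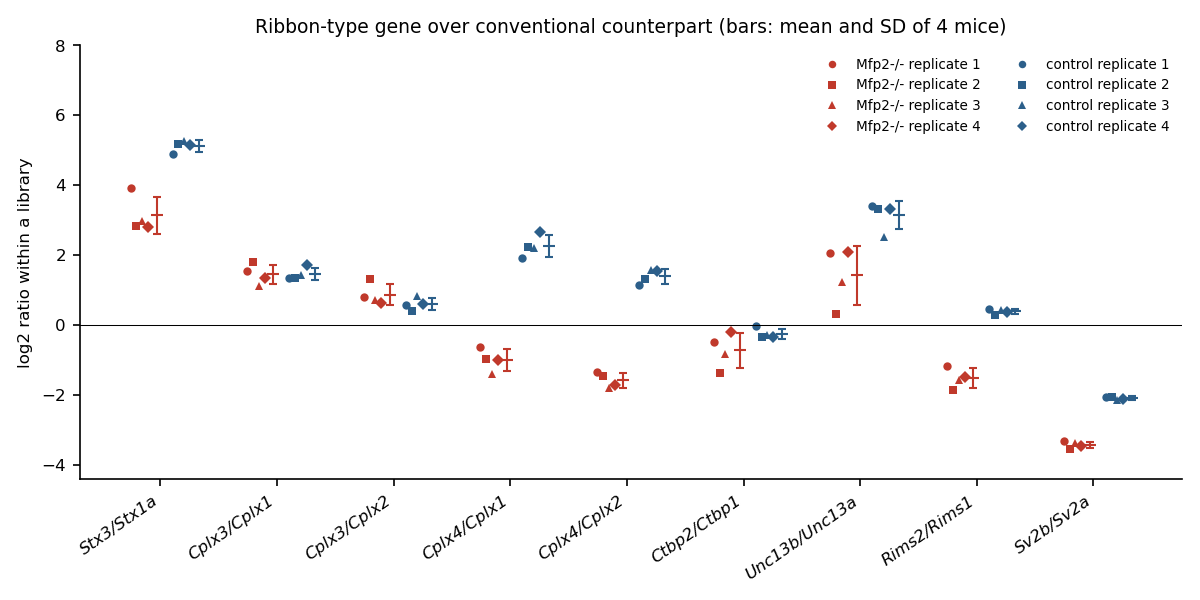
Log2 ratio of a ribbon-type over a conventional gene within each library, for 9 pairs, with points for single libraries and bars for the mean ± SD of 4 Mfp2-/- and 4 control retinas. The 6 ratios that separate the groups lie lower in Mfp2-/- retinas, and the 2 ratios with Cplx3 and that of Ctbp2 to Ctbp1 overlap.

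The promoters of 4 of the genes that fell are shown, so that the letters around their starts can be read beside the values. RefSeq windows of 250 bases before to 50 bases after the start (GRCm38.p6) were matched by symbol for 38 of the 48 genes. They were searched on both strands for TAATCC, the core recognised by homeobox factors of the OTX family, which act in photoreceptors and bipolar cells. The windows of 4 of 38 member genes held it (Ctbp2, Stx3, Sv2b and Syp), a share of 10.5% with an exact Clopper-Pearson interval of 2.94% to 24.8%, where 8.14% of all 27025 genes in the table did. The longer CTAATCC was in 0 of the 38 genes, which allows a share of up to 9.25% by the exact interval, and in 2.34% of all genes. A match describes the letters and not a binding site. The windows of Stx3, Sv2b, Slc17a7 and Unc13b, the strongest falls for which a window was matched, are given 5′ to 3′ on the strand of the gene with TAATCC or its reverse complement GGATTA in capitals where present. Stx3 lies at chr19:11819354-11819653 (minus strand), Sv2b at chr7:75309213-75309512 (minus strand), Slc17a7 at chr7:45163671-45163970 (plus strand) and Unc13b at chr4:43058703-43059002 (plus strand).
Stx3: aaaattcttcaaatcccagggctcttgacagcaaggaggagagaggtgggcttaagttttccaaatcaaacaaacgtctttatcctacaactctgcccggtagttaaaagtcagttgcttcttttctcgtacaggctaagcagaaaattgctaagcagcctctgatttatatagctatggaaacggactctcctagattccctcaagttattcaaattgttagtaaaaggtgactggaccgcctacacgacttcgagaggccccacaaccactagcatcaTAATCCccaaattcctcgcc
Sv2b: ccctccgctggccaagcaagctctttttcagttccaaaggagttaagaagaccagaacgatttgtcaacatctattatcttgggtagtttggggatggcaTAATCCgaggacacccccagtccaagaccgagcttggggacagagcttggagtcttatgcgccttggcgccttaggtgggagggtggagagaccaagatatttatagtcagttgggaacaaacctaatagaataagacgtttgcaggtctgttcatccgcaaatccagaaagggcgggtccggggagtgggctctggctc
Slc17a7: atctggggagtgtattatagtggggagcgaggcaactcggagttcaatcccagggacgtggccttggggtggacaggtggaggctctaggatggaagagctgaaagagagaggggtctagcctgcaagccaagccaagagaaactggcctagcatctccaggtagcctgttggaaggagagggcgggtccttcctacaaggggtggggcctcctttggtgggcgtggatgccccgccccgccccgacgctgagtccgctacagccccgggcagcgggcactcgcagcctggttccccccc
Unc13b: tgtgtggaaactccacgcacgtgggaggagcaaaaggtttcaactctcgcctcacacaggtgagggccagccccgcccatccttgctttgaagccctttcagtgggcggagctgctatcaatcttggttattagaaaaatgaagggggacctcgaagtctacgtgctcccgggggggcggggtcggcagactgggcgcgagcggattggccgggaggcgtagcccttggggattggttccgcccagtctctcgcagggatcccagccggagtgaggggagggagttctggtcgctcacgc
Stx3 and Sv2b, which fell 2.59-fold and 1.86-fold, held 1 match each in these windows (Sv2b has 4 windows in the table, of which 2 held the core), and Slc17a7 and Unc13b, which fell 3.52-fold and 2.86-fold, held none. Ctbp2 and Syp, the other genes with a match, did not pass the test between the groups.

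Among the vesicle membrane and cargo genes, 3 of the 7 tested fell (Slc17a7, Sv2b and Syngr1) and 2 rose (Sv2a and Syngr3). These were 42.9% and 28.6%, against 13.2% lower and 13.8% higher among all tested genes. Slc17a7 encodes VGLUT1, which fills the vesicles of photoreceptors and bipolar cells with glutamate. It was at 219, 247, 256 and 208 CPM in Mfp2-/- and 865, 798, 843 and 765 CPM in control retinas, 3.52-fold lower and well outside the spread of either group (log2 fold change -1.81 ± 0.13 SE, adjusted p = 2.31e-06). In control retinas only Syt1, Sv2a, Snap25 and Vamp2 of the 46 members were more abundant than Slc17a7. The transcript lies on chromosome 7 from 45163949 to 45176142 (GRCm38). Syngr1, a synaptogyrin, was at 121, 128, 131 and 129 CPM in Mfp2-/- and 201, 161, 169.7 and 144 CPM in control retinas (log2 fold change -0.41 ± 0.13 SE, adjusted p = 0.0397). Its relative Syngr3 was at 22.3, 30.5, 29.2 and 43.02 CPM in Mfp2-/- and 20.02, 23.5, 18.4 and 16.02 CPM in control retinas (log2 fold change 0.69 ± 0.22 SE, adjusted p = 0.0385). The 2 synaptogyrins thus moved in opposite directions, Syngr3 being the only called member whose groups overlapped. The call of Syngr1 did not hold with the omission of either control replicate 1, 2 or 3 or else Mfp2-/- replicate 1, 3 or 4 (adjusted p between 0.0708 and 0.097). The call of Syngr3 did not hold with the omission of either control replicate 1, 3 or 4 or else Mfp2-/- replicate 3 or 4 (adjusted p between 0.0692 and 0.0997).

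Synaptophysin, the most common marker of vesicle membranes, depended on the library. Syp was at 156, 285, 277 and 146 CPM in Mfp2-/- and 255, 214, 249 and 235 CPM in control retinas. Mfp2-/- replicates 2 and 3 lay above the controls and replicates 1 and 4 below them, and the log2 fold change of -0.14 ± 0.22 SE did not pass (adjusted p = 0.668). Without replicates 2 and 3 it was -0.66 and passed (adjusted p = 0.002). Synpr, the related synaptoporin, averaged 212 ± 27.9 CPM in Mfp2-/- and 165 ± 24.7 CPM in control retinas and did not pass (log2 fold change 0.36, adjusted p = 0.101), but did without Mfp2-/- replicate 2 (log2 fold change 0.45, adjusted p = 0.0317).

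The synaptotagmins were the role with the most genes that rose, 5 of 7 tested (71.4%), where 13.8% of all tested genes were higher. None of the synaptotagmins fell, and they had a median log2 fold change of 0.50. Their sum was 3191 to 3598 CPM in Mfp2-/- against 2969 to 3126 CPM in control retinas. Syt1, the calcium sensor of fast release and the most abundant of all members, was at 2166, 1845, 2273 and 2212 CPM in Mfp2-/- and 2032, 2073, 1977 and 2236 CPM in control retinas. The groups overlapped and the log2 fold change was 0.03 ± 0.12 SE (adjusted p = 0.874). Syt2, the other fast sensor (chromosome 1, 134646677 to 134762593), was at 68.3, 91.97, 74.3 and 76.1 CPM in Mfp2-/- and 33.8, 37.999, 39.995 and 30.7 CPM in control retinas. Every Mfp2-/- retina lay well above every control, and at 2.18-fold this was the largest rise of all members (log2 fold change 1.12 ± 0.14 SE, adjusted p = 2.71e-04). Syt5 was at 26.9, 43.7, 41.7 and 38.2 CPM in Mfp2-/- and 18.6, 21.3, 22.6 and 17.4 CPM in control retinas, 1.88-fold higher with no overlap (log2 fold change 0.91 ± 0.18 SE, adjusted p = 0.00459). Syt7, the sensor of slow and asynchronous release, was at 319.5, 332, 297 and 323 CPM in Mfp2-/- and 279, 280.0, 276 and 223 CPM in control retinas. Here too the groups did not overlap, but the log2 fold change of 0.27 ± 0.12 SE did not pass (adjusted p = 0.138).

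The remaining 3 synaptotagmins bind calcium poorly or not at all and serve other steps of vesicle traffic, and all 3 rose. Syt11 was at 497, 546, 563 and 546 CPM in Mfp2-/- and 377, 379, 377 and 384 CPM in control retinas, 1.42-fold higher (log2 fold change 0.50 ± 0.11 SE, adjusted p = 0.0072). Syt13 was at 107, 112, 97.8 and 99.3 CPM in Mfp2-/- and 72.1, 61.5, 70.96 and 64.1 CPM in control retinas, 1.55-fold higher (log2 fold change 0.63 ± 0.12 SE, adjusted p = 0.00314). The controls of Syt11 differed by only a few CPM, and both genes kept their call in all 21 alternative settings. Syt4 was at 337, 221, 251 and 269.9 CPM in Mfp2-/- and 191, 196, 205 and 172 CPM in control retinas, 1.41-fold higher (log2 fold change 0.50 ± 0.15 SE, adjusted p = 0.0306). Its lowest Mfp2-/- value, in replicate 2, was close to the highest control. The call of Syt4 did not hold with the omission of any 1 control replicate or of Mfp2-/- replicate 1 or 3 (adjusted p = 0.0514 to 0.0816). The bipolar cell markers summed to 2331 to 3148 CPM in Mfp2-/- against 1799.8 to 2123 CPM in control retinas, the amacrine cell markers to 2460 to 2559 CPM in Mfp2-/- against 1933 to 2039 CPM in control, and the ganglion cell markers to 2539 to 3024 CPM in Mfp2-/- against 1690.5 to 2273 CPM in control. Their part in the rises of the synaptotagmins was not tested.

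**Figure D4:**
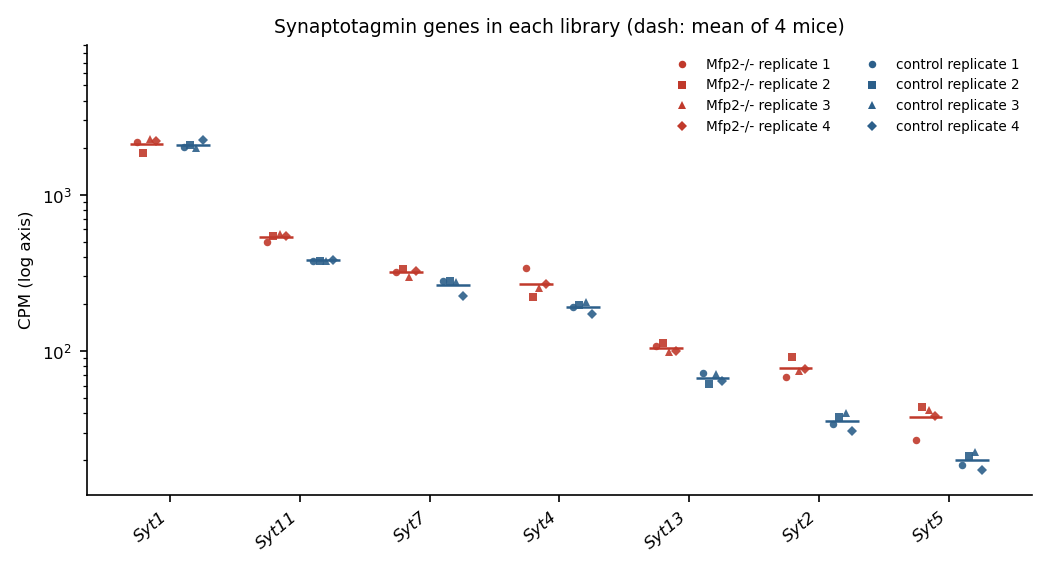
Level in CPM, on a log axis, of the 7 synaptotagmins in each of the 4 Mfp2-/- and 4 control retinas, with points for single retinas and dashes for group means. The groups overlap for Syt1, while the 4 Mfp2-/- retinas lie above all controls for Syt2, Syt4, Syt5, Syt7, Syt11 and Syt13, of which all but Syt7 passed the test.

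The common neuronal SNAREs did not pass the test, and Stx3 was the only 1 of the 6 that did. The share called among all tested genes was 27.0%. Snap25, the target membrane SNARE of nearly all neurons, was at 1028, 549.8, 839 and 1032 CPM in Mfp2-/- and 926, 955, 843 and 809 CPM in control retinas, with Mfp2-/- replicate 2 far below the other 3 (log2 fold change -0.03 ± 0.19 SE, adjusted p = 0.913). The main vesicle SNARE Vamp2 averaged 809 ± 179 CPM in Mfp2-/- and 822 ± 93.7 CPM in control retinas (log2 fold change -0.02, adjusted p = 0.931), and replicate 2 was here the highest of its group. Vamp1, its less abundant relative, was at 111, 133, 121 and 132 CPM in Mfp2-/- and 98.99, 103, 88.7 and 99.3 CPM in control retinas. The groups of Vamp1 did not overlap and its adjusted p was 0.0508 (log2 fold change 0.35), just outside the threshold, and 0.0373 without Mfp2-/- replicate 1. Snap47 averaged 199 ± 37.8 CPM in Mfp2-/- and 143 ± 19.8 CPM in control retinas (log2 fold change 0.47, adjusted p = 0.0552), and it also passed without Mfp2-/- replicate 1 (log2 fold change 0.59, adjusted p = 0.028).

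The ATPase Nsf and its adaptors, which take used SNARE complexes apart, included no called gene. Nsf averaged 551 ± 14.2 CPM in Mfp2-/- and 531 ± 39.7 CPM in control retinas (SD, n = 4 each, log2 fold change 0.05 ± 0.11 SE), so that the means differed by less than the spread between controls. Napa, the α-SNAP gene, averaged 98.02 ± 15.05 CPM in Mfp2-/- and 109.6 ± 14.7 CPM in control retinas (log2 fold change -0.16, adjusted p = 0.463). Napb, the β-SNAP gene, was at 579, 271, 488 and 591 CPM in Mfp2-/- and 727, 607, 575 and 634 CPM in control retinas. Mfp2-/- replicate 2 was far below the other 7 libraries, and the log2 fold change of -0.40 ± 0.22 SE did not pass (adjusted p = 0.204).

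Synapsins coat and cluster the reserve vesicles of conventional synapses and are missing from ribbon terminals. Syn2 was at 99.8, 107, 104 and 103 CPM in Mfp2-/- and 85.9, 74.2, 78.1 and 68.6 CPM in control retinas. The 4 Mfp2-/- retinas lay within a few CPM of each other and above all controls (log2 fold change 0.43 ± 0.12 SE, adjusted p = 0.0206), but the call did not hold with the omission of either control replicate 2, 3 or 4 or else Mfp2-/- replicate 3 (adjusted p between 0.0521 and 0.0672). Syn1 averaged 90.7 ± 10.9 CPM in Mfp2-/- and 72.03 ± 14.3 CPM in control retinas and did not pass (log2 fold change 0.33, adjusted p = 0.156), and it shares 9 exon bases with Araf on the other strand, whose counts were 128% of its own. Syn3 had 24 counts over the Mfp2-/- and 28 over the control libraries and was not tested. Rab3a, the GTPase that guides vesicles to the active zone, averaged 607 ± 80.2 CPM in Mfp2-/- and 565 ± 58.7 CPM in control retinas, and Sncb, β-synuclein, 527 ± 89.6 CPM in Mfp2-/- and 457 ± 57.1 CPM in control retinas. Neither passed (log2 fold change 0.10, adjusted p = 0.615 and 0.20, adjusted p = 0.363). Rab3c was at 188, 81.3, 131 and 178 CPM in Mfp2-/- and 128, 104, 114 and 111 CPM in control retinas. Its log2 fold change of 0.34 did not pass (adjusted p = 0.294), whereas it was 0.53 without Mfp2-/- replicate 2 (adjusted p = 0.0179) and 0.67 without replicates 2 and 3 (adjusted p = 0.00113).

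Of the 10 scaffold and priming genes of the active zone and ribbon, 2 fell (Rims2 and Unc13b) and 2 rose (Rims1 and Erc1). Each share was 20%, where 13.2% of all tested genes were lower and 13.8% higher. The ELKS proteins Erc1 and Erc2 bind RIM proteins at the active zone. Erc1 was at 79.98, 73.7, 80.005 and 101 CPM in Mfp2-/- and 70.6, 53.8, 66.1 and 52.6 CPM in control retinas (log2 fold change 0.46 ± 0.15 SE, adjusted p = 0.0457), a call that did not hold with the omission of either control replicate 2, 3 or 4 or else Mfp2-/- replicate 3 or 4 (adjusted p between 0.0638 and 0.132). Erc2 was at 101, 61.5, 69.9 and 103 CPM in Mfp2-/- and 126, 119.9, 115 and 113 CPM in control retinas. All 4 Mfp2-/- values of Erc2 lay below the controls, but the log2 fold change of -0.50 ± 0.18 SE did not pass (adjusted p = 0.0575), while it did without Mfp2-/- replicate 1 or 4 (adjusted p = 0.0354 and 0.0326). The large scaffolds Bassoon and Piccolo did not pass. Bsn, which anchors the ribbon, averaged 37.8 ± 5.38 CPM in Mfp2-/- and 30.7 ± 2.83 CPM in control retinas (log2 fold change 0.30, adjusted p = 0.168). Pclo was at 431, 129.6, 183 and 483 CPM in Mfp2-/- and 386, 372, 206 and 413 CPM in control retinas. As for Unc13b, its low libraries were Mfp2-/- replicates 2 and 3 and control replicate 3, and its log2 fold change of -0.17 ± 0.39 SE (adjusted p = 0.78) became 0.40 without Mfp2-/- replicates 2 and 3, still without passing.

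The endocytic genes, whose products recover vesicle membrane after fusion, had 1 called member of 4 (25%), near the 27.0% of all tested genes. Dnm1, the GTPase that cuts the neck of the budding vesicle, averaged 117 ± 22.99 CPM in Mfp2-/- and 98.2 ± 7.25 CPM in control retinas. Amph, amphiphysin, averaged 172 ± 9.71 CPM in Mfp2-/- and 177 ± 8.96 CPM in control retinas, and Sh3gl2, endophilin A1, 384 ± 21.03 CPM in Mfp2-/- and 371 ± 24.7 CPM in control retinas. None of the 3 passed (adjusted p = 0.257, 0.826 and 0.773). Synj1, the lipid phosphatase that helps strip the clathrin coat and that is needed in cone terminals of zebrafish, was at 289, 220.0, 286 and 282 CPM in Mfp2-/- and 312, 379, 369 and 380.0 CPM in control retinas. It fell without overlap (log2 fold change -0.42 ± 0.14 SE, adjusted p = 0.0451), but the call was lost when any library other than control replicate 1 was left out (adjusted p = 0.0596 to 0.111).

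Mfp2-/- replicates 2 and 3 both lay below replicates 1 and 4 for 11 of the 46 members (23.9%) and above them for 14 (30.4%), shares near the 29.2% and 26.5% over all tested genes. The 11 low genes included Unc13b, Pclo, Rims2, Napb and Snap25, and the 14 high genes included Syp, Vamp2, Sv2a and Cplx3. Without both replicates 10 members were higher and 8 lower, but not the same ones: Sv2a (adjusted p = 0.059) and Synj1 (adjusted p = 0.076) lost their calls, and Rab3c and Syp gained one. The Mfp2+/- retina, control replicate 2, lay inside the range of the 3 Mfp2+/+ retinas for 30 of the 46 members (65.2%), against 56.3% of all genes, below it for 9 and above it for 7. The members summed to 13319 to 13984 CPM in Mfp2-/- against 14366 to 14830 CPM in control retinas.

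**Figure D5:**
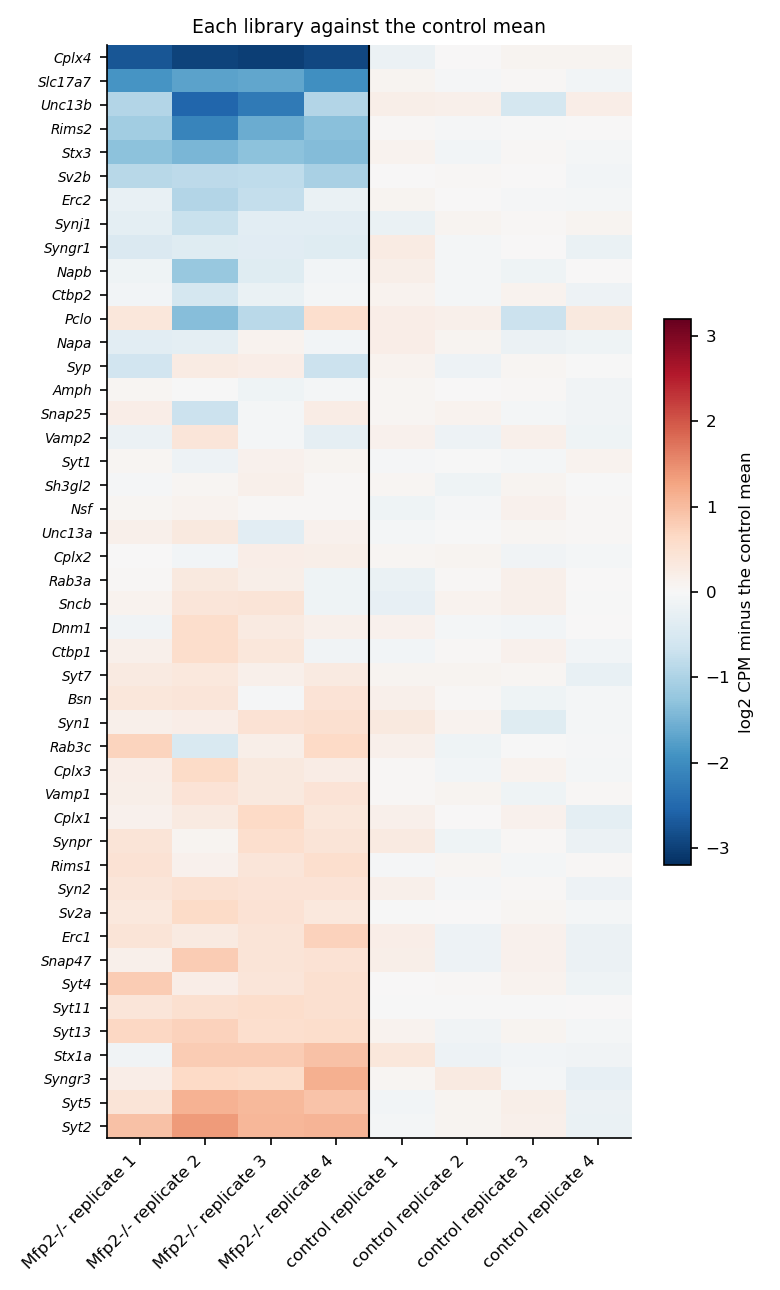
Difference in log2 CPM from the control mean for the 46 tested release genes (ordered by fold change) in each of the 4 Mfp2-/- and 4 control libraries; blue is lower and red higher than the control mean. The genes at the strongly lower end are low in all 4 Mfp2-/- libraries, while genes such as Unc13b, Pclo and Syp differ between Mfp2-/- replicates 2 and 3 and replicates 1 and 4.

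From a list of 90 further release genes 82 were tested, of which 13 rose (15.9%) and 10 fell (12.2%), near the 13.8% and 13.2% of all genes, with a median log2 fold change of 0.13. Those that fell with the smallest p included a pair of genes of calcium entry at photoreceptor terminals. Cabp4, which binds the presynaptic calcium channel, averaged 8.59 ± 2.81 CPM in Mfp2-/- and 148 ± 12.98 CPM in control retinas (SD, n = 4 each, log2 fold change -4.10 ± 0.22 SE, adjusted p = 3.45e-07). It shares exon bases with Gpr152 on the other strand, whose counts were 28.1% of its own. Cacna1f, the pore subunit of that channel, averaged 50.1 ± 12.4 CPM in Mfp2-/- and 136 ± 19.5 CPM in control retinas (log2 fold change -1.44, adjusted p = 3.02e-04). The calcium sensor gene Doc2b (-1.63) and the amphiphysin relative Bin1 (-0.92) also fell on the log2 scale. Those that rose with the smallest p included the clathrin light chain gene Cltb (log2 fold change 0.79), the endosomal syntaxin gene Stx7 (0.61), the synaptic adhesion gene Lrrc4b (0.93) and Rims4 (0.73), a short RIM protein. The calls of these 8 genes were kept in the 21 alternative settings.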

How the data were processed

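Neural retinas of 4 Mfp2-/- and 4 control mice were sequenced with the QuantSeq 3′ kit. The deposited values are raw counts of reads per gene symbol, which the authors made with FastQC 0.11.7, HISAT2, SAMtools 1.5 and HTSeq 2.7.14 on mm10 and did not normalise. Neither labels nor methods give the HISAT2 version, the annotation release or the strand setting, so reads of overlapping genes on opposite strands may not be separable. Reads in no gene were left out of library sizes. Groups came from the labels, with the Mfp2+/- mouse kept among the controls as in the study. The members and lists were chosen with earlier results of these data known, and the lists were written from general knowledge.

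The counts were tested with edgeR 4.0.16 in R 4.3.3 (TMM factors, filterByExpr, quasi-likelihood test), with p-values adjusted by Benjamini-Hochberg over 12516 genes and a threshold of 0.05. Log2 ratios of genes used log2 CPM with a prior count of 2 and a two-sided exact permutation test. Standard errors were derived from the F statistic. Values per library were given for the genes of the 9 ratios and for the 8 called members of smallest adjusted p in each direction, and for other members where single libraries decided the value, which was chosen after the values were seen. Of the further genes, the 5 of smallest p in each direction were taken, of which 2 are not reported here. The scripts were tested on simulated data. Alternatives were other scaling factors and filters, DESeq2 1.42.0, limma 3.58.1 (voom and trend), a block for the replicate number, a robust fit, the series-wide table, and leaving out libraries. Depth limits genes of few counts such as Stx1a most. Coordinates of genes are those of GRCm38.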

Additional observations from a re-analysis of the deposited data

Results flagged for a closer look

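A value that stood apart from the other 3 of its group was found in 7 of 110 groups of 4 examined, where chance alone marks about 1 in 20 groups. Unc13b in control replicate 3 was at 217 CPM, against 354 to 369 CPM in the other controls, and the log2 ratio of Unc13b to Unc13a in this library was 2.54, against 3.32 to 3.40. Synj1 stood apart in both groups, with 220 CPM in Mfp2-/- replicate 2, against 282 to 289 CPM in the other Mfp2-/- retinas, and 312 CPM in control replicate 1, against 369 to 380 CPM in the other controls. Stx1a did so too, with 12 CPM in Mfp2-/- replicate 1, against 23.9 to 25.7 CPM, and 17.1 CPM in control replicate 1, against 11.8 to 12.3 CPM. Syt7 in control replicate 4 was at 223 CPM, against 276 to 280 CPM in the other controls.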

How the results depend on the processing

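In 21 alternative settings 10 of the 18 called members kept their call (Syt2, Syt5, Syt11, Syt13, Stx3, Cplx4, Sv2b, Slc17a7, Rims2 and Unc13b), and no called member changed direction. The number of members called higher, 10 with TMM factors, was 17 with upper-quartile factors, 17 with total counts alone, 5 without a filter on low counts and 4 to 12 when 1 library was left out. The number called lower stayed between 6 and 9 over all settings. Replicate numbers were shared between the groups, and the correlation of their deviations was 0.080, -0.16, 0.25 and 0.21 for numbers 1 to 4. Correlations between unlike numbers were not compared, so whether the numbers pair the samples was not tested. With the replicate number as a block 4 members were higher and 6 lower. Syt4, Sv2a, Syngr1, Syngr3, Syn2, Rims1, Erc1 and Synj1 lost their call under the block, and all of them but Syngr3 also without the filter. Syngr1 and Synj1 also lost it with upper-quartile factors and total counts alone. Vamp1, Snap47, Erc2, Stx1a, Synpr, Syt7, Cplx1, Cplx3, Syp and Rab3c, which were not called, passed in 1 to 9 settings each. The difference in the log2 ratio of Ctbp2 to Ctbp1 was -0.092 without Mfp2-/- replicates 2 and 3. The share of member promoters with the longer motif CTAATCC was 0%. Among members that were not called, 10 changed sign in at least 1 setting (22 times in all), with an absolute log2 fold change of at most 0.40. The cause of these changes was not tested. Log2 ratios were not tested again when libraries were left out, and only their values are given. Genes of few counts, above all Stx1a, were limited by depth, and Sv2c and Syn3 could not be tested.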

Other observations

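In control retinas the members spanned a wide range of levels. Syt1 (2079 CPM), Sv2a, Snap25 (883 CPM), Vamp2 (822 CPM) and Slc17a7 (818 CPM) were the most abundant, and Bsn (30.7 CPM), Syngr3 (19.5 CPM) and Stx1a (13.3 CPM) were among the least. Syt1, Snap25 and Vamp2 are used at both ribbon and conventional synapses, and none of these 3 passed the test between Mfp2-/- and control retinas.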
